A study of Mus musculus with 6 samples.

Results

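ATP-binding cassette (ABC) proteins and organic anion transporting polypeptides (OATPs) move bile salts, phospholipids, sterols, hormones and drugs across the membranes of liver cells. OATPs, encoded by Slco genes, take organic anions up from sinusoidal blood at the basolateral membrane of the hepatocyte. ABC transporters spend ATP to export their substrates, into bile at the canalicular membrane or back into blood at the basolateral membrane, while other family members serve peroxisomes, mitochondria and the loading of lipoproteins with cholesterol. The members were defined by gene symbol, and this choice was made with earlier results of these data known. They are all mouse symbols of the families Abca to Abcg and of the numbered Slco genes. Each is represented by its probe set with the highest mean over the 6 arrays. Of the 22180 genes with a probe set of their own, 63 were members, 48 ABC genes and 15 OATP genes. They were divided by known role into 6 canalicular exporters, 4 basolateral uptake transporters, 5 basolateral exporters, 5 sterol exporters, 2 peroxisomal transporters, 3 mitochondrial transporters, 4 ATPases of translation, 23 other ABC genes and 11 other OATP genes.

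The study compared liver of ErbB4-/- mice with liver of wild-type mice, 3 mice per group with 1 whole-transcript array each. ErbB4 is a receptor tyrosine kinase that binds neuregulins, and mice without it die as embryos. The mutants (ErbB4-/-HER4heart) carried a full ErbB4 mutation and were rescued by ErbB4 expressed from a heart transgene, and had been crossed back to C57BL/6J for more than 15 generations, and the controls were wild-type C57BL/6J mice. All 6 mice, controls included, had received DEN once, on postnatal day 14. DEN is read here as the liver carcinogen diethylnitrosamine. The promoter of the transgene, the sex of the mice and whether tumour or non-tumour liver was sampled are not given in the labels used here. Dissection took place after 32 weeks in every mouse by the protocol text, whereas the characteristic of each sample gives 35, 36 and 37 weeks for ErbB4-/- replicates 1 to 3 and 32, 33 and 34 weeks for control replicates 1 to 3. By that characteristic every mutant was older than every control. The protocol text and the characteristic conflict, and the labels do not say which is right.

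The values are log2 expression values, which can be compared between arrays for 1 gene but not between genes. Erbb4 itself measured 4.75, 5.36 and 5.61 in ErbB4-/- livers and 5.42, 5.73 and 5.42 in control livers, groups that overlapped (limma, adjusted p = 0.772), so it does not check the labels. Hepatocyte markers such as Alb, the albumin gene, were high on all 6 arrays, and the mean of 10 such genes lay between 12.53 and 12.69. Control replicate 1 stood apart from the other 5 arrays in genes that differ between male and female mouse liver. The mean of 14 male-biased genes was 9.86 to 10.26 in ErbB4-/- livers, against 7.07 in control replicate 1 and 9.97 and 10.04 in the other controls. The mean of 13 female-biased genes was at most 5.43 in ErbB4-/- livers, against 6.44 in control replicate 1 and 5.06 in each of the other controls. Not every gene of these lists followed its mean. Control replicate 1 was not the highest array for Cyp2a4, Cyp3a16, Sult2a1, Prom1 and Ntrk2, nor the lowest for Ugt2b38. ErbB4-/- replicate 3 had the lowest agreement with the rest, with a highest correlation across probe sets of 0.978 with any other array, against 0.984 to 0.986 for the others. Differences without one or the other of these arrays are therefore given beside many of the values.

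No transporter gene passed the test between ErbB4-/- and control liver. The count at an adjusted p under 0.05 was 0 of 63 (limma, Benjamini-Hochberg over all genes), where the background over all genes was 0.00451%, a single gene. Adjusted p ran from 0.760 to 1.00 among members. At an unadjusted p under 0.05 there were 5 members, or 7.94%, against a background of 5.72%. These were Abcb1b and Abcc6 with higher values in ErbB4-/- liver and Abcc9, Abcg3 and Slco4c1 with lower ones. The groups did not overlap in 3 members, against 8.33% of all genes. One of these, Slco2b1, lay higher in ErbB4-/- liver (background 4.52%), and 2, Abcc9 and Slco4c1, lay lower (background 3.81%). The signs were 38 higher and 25 lower, a share of 60.3% higher against 54.7% of all genes. The median difference was 0.042 over the members and 0.015 over all genes. Shares of this size lie near those of all genes and do not set the families apart. With 3 mice a side, the smallest two-sided p of an exact permutation test is 0.10, and such tests were not run.

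**Figure D1:**
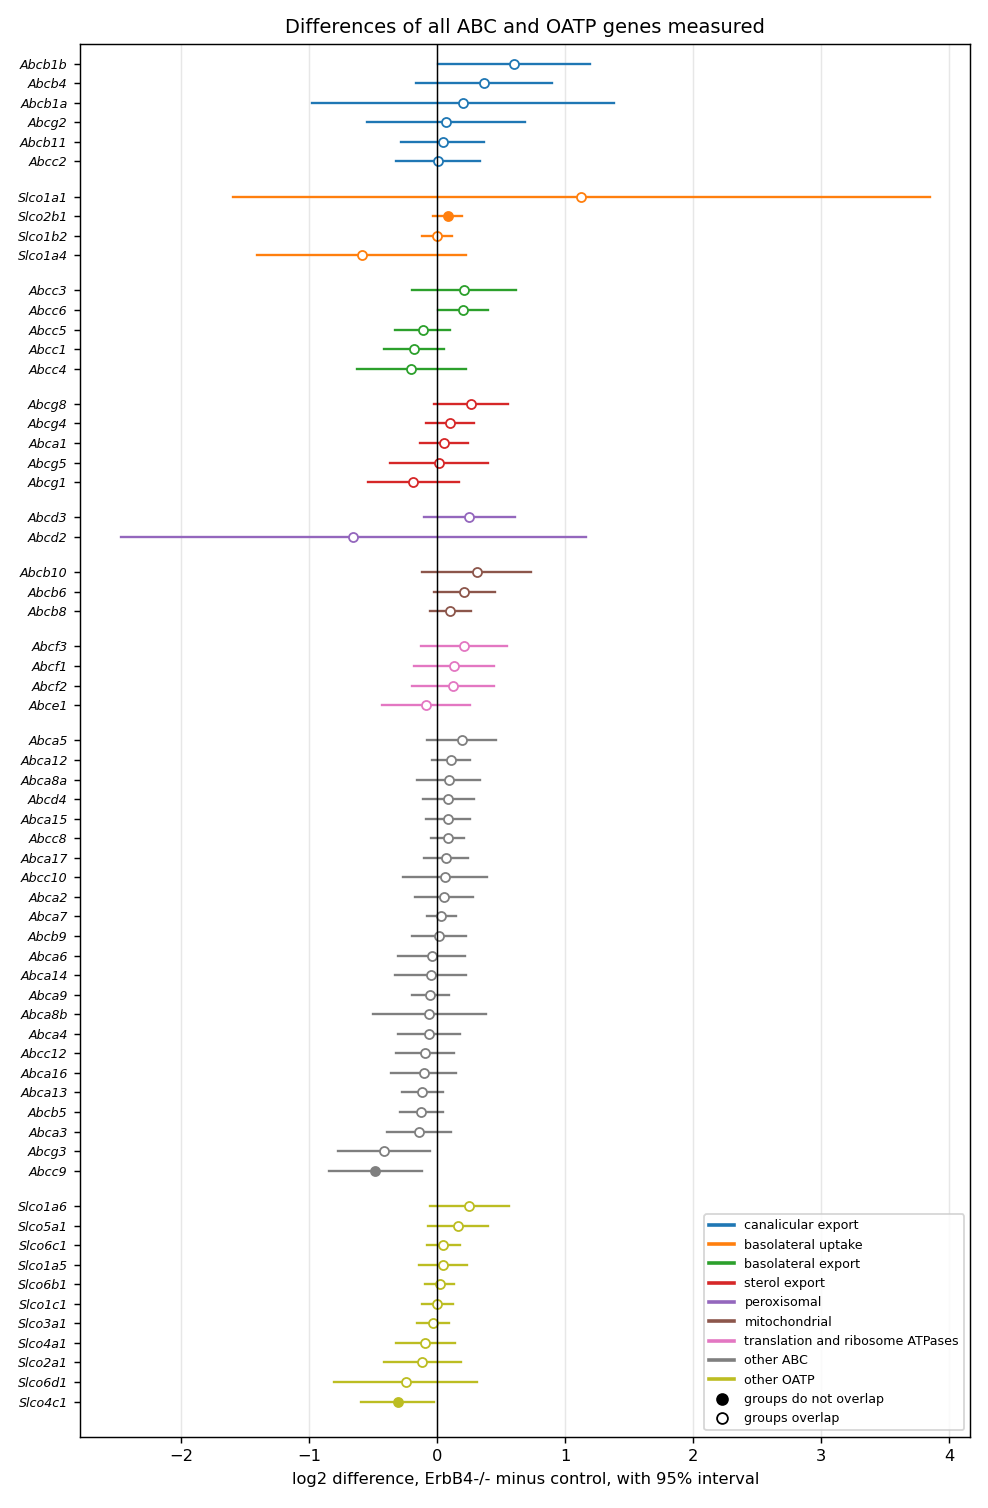
Log2 differences (x axis, ErbB4-/- minus control) of all 63 ABC and OATP genes, 1 gene per row, coloured by role, with 95% intervals from the limma fit as lines. Filled points mark the 3 genes whose groups did not overlap, and the widest intervals belong to Slco1a1 and Abcd2.

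The canalicular exporters set the composition of bile. All 6 had a difference above 0 in ErbB4-/- liver, with a median of 0.13, but none passed and the groups overlapped in each. Without control replicate 1, Abcb11 and Abcg2 lay below 0, at -0.0086 and -0.19. Abcb11 encodes the bile salt export pump, the main route of bile salts into bile. It measured 11.85, 11.66 and 11.38 in ErbB4-/- livers and 11.49, 11.66 and 11.61 in control livers. The mutants spread wider than the controls and ran past them at both ends, and the difference was 0.04 with a 95% interval of -0.28 to 0.37 (limma, adjusted p = 0.929). Without ErbB4-/- replicate 3, its lowest array, the difference was 0.17. Abcc2, which exports bilirubin glucuronides and other conjugates, measured 11.68, 11.65 and 12.10 in ErbB4-/- livers, against 11.86, 11.75 and 11.81 in control livers. ErbB4-/- replicate 3 was the highest array and the other mutants were the lowest, and the means differed by 0.005 with an interval of -0.33 to 0.33. Without ErbB4-/- replicate 3 the difference of Abcc2 was -0.14.

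Abcb4 encodes the floppase that delivers phosphatidylcholine to bile. It measured 10.50, 10.46 and 11.08 in ErbB4-/- livers and 10.38, 10.04 and 10.53 in control livers. Here too ErbB4-/- replicate 3 was the highest array, and the difference of 0.36 (standard error 0.21, adjusted p = 0.760) became 0.16 without it. Abcg2, the breast cancer resistance protein that exports drugs and urate, measured 8.63, 8.41 and 8.27 in ErbB4-/- livers and 7.85, 8.52 and 8.74 in control livers. Control replicate 1 was the lowest array, 0.42 below the next, and the difference of 0.07 became -0.19 without it, or 0.15 without ErbB4-/- replicate 3.

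Mouse liver has a pair of P-glycoprotein genes, Abcb1a and Abcb1b, which export many drugs. They are close paralogs, so their array signals may not be fully separate. Abcb1a varied widely within both groups, with 5.84, 5.44 and 6.65 in ErbB4-/- livers and 6.56, 5.06 and 5.71 in control livers. Its difference of 0.20 had an interval of -0.98 to 1.38, and it was 0.59 without control replicate 1 and -0.14 without ErbB4-/- replicate 3. Abcb1b had a low signal of 3.76, 4.35 and 3.84 in ErbB4-/- livers and 3.36, 3.76 and 3.04 in control livers. The lowest mutant array equalled the highest control array, and the difference of 0.60 (standard error 0.24) was 1.51-fold with an unadjusted p of 0.0494 and an adjusted p of 0.760. It lay below the median level of all genes on every array, so the signal may hold background.

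**Figure D2:**
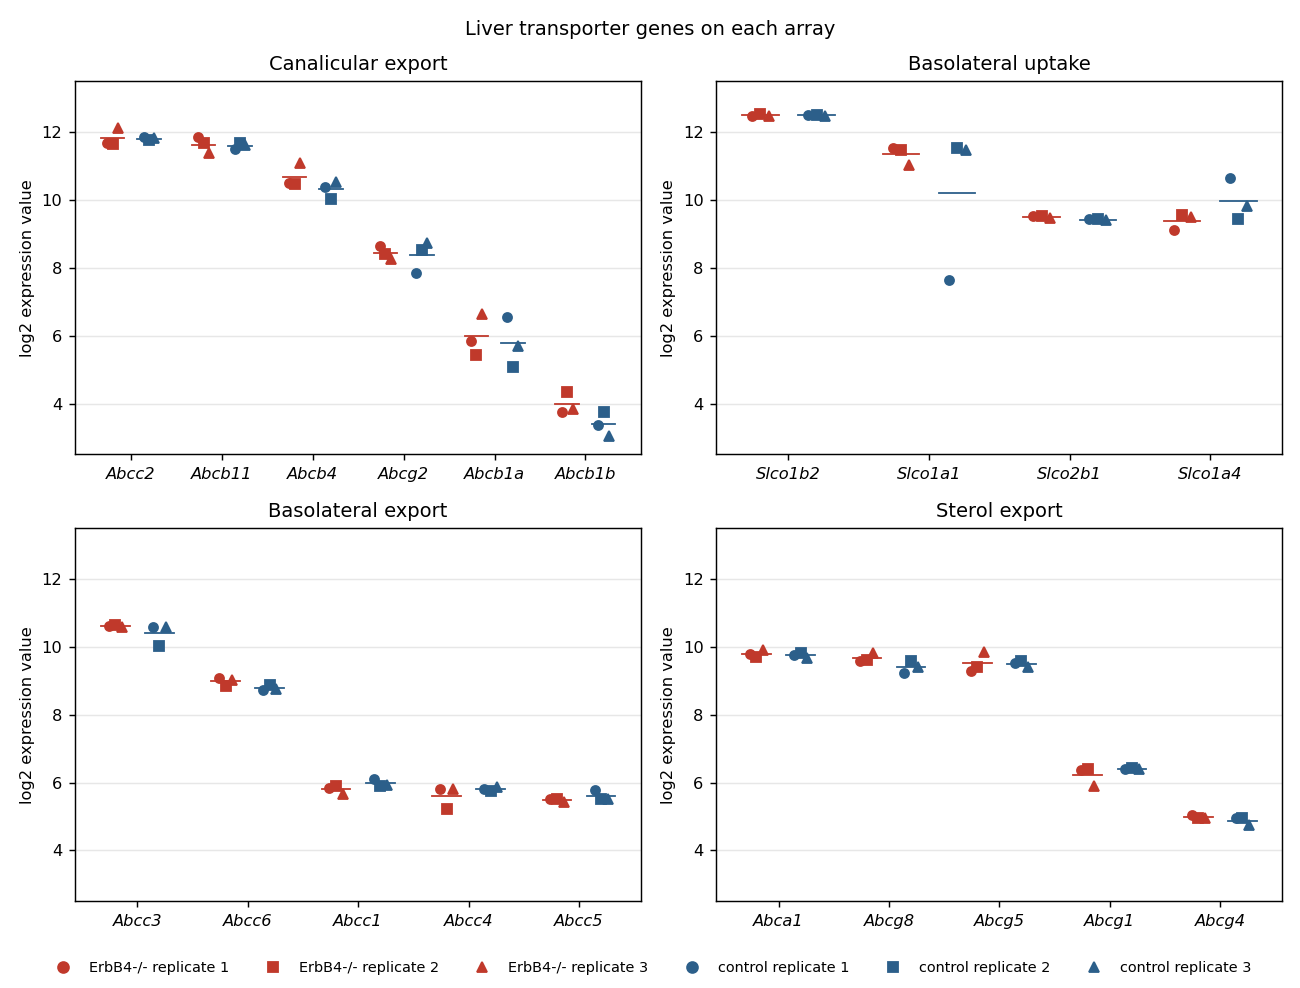
Log2 expression values (y axis) of the 20 canalicular, basolateral and sterol transporter genes on each array, ErbB4-/- in red and control in blue, with horizontal lines at group means and heights not comparable between genes. In 19 of these genes the red and blue points overlap, Slco2b1 being the exception, and control replicate 1 lies far below all others for Slco1a1 and above all others for Slco1a4.

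Among the uptake transporters of the basolateral membrane, 2 genes were almost level across the 6 livers and 2 varied with control replicate 1. Slco1b2 encodes Oatp1b2, the liver-specific OATP that takes up bilirubin, unconjugated bile acids and statins. It measured 12.46, 12.52 and 12.48 in ErbB4-/- livers and 12.51, 12.50 and 12.46 in control livers. The difference was -0.0036 with an interval of -0.12 to 0.11, a narrow one for these data, and its sign turned without control replicate 1 (0.0054). Slco2b1, a broadly expressed OATP for steroid sulfates, measured 9.51, 9.52 and 9.47 in ErbB4-/- livers and 9.43, 9.43 and 9.39 in control livers. Every mutant lay above every control, but by little, with a difference of 0.08 and a standard error of 0.05 (limma, adjusted p = 0.760). Slco2b1 was the only member with 2 probe sets, and the dimmer one pointed the other way, with 3.87, 4.61 and 4.67 in ErbB4-/- livers against 5.04, 4.80 and 4.94 in control livers, a difference of -0.54.

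Slco1a1 and Slco1a4 belong to the Oatp1a cluster, known in mouse liver as male-predominant and female-predominant. Slco1a1 encodes Oatp1a1, which takes up bile acids and steroid conjugates. It measured 11.54, 11.46 and 11.01 in ErbB4-/- livers and 7.64, 11.53 and 11.47 in control livers. The other 5 arrays lay between 11.01 and 11.54, and control replicate 1 was 3.37 below the lowest of them. The difference was 1.13 with a standard error of 1.09 (limma, adjusted p = 0.780), and -0.16 without control replicate 1. Slco1a4 encodes Oatp1a4, a transporter of bile acids and cardiac glycosides that is inducible through the pregnane X receptor. It measured 9.10, 9.56 and 9.49 in ErbB4-/- livers and 10.66, 9.44 and 9.83 in control livers. Here control replicate 1 was the highest array, 0.82 above the next. The difference was -0.59 with a standard error of 0.33 (adjusted p = 0.760), and -0.25 without that array.

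**Figure D3:**
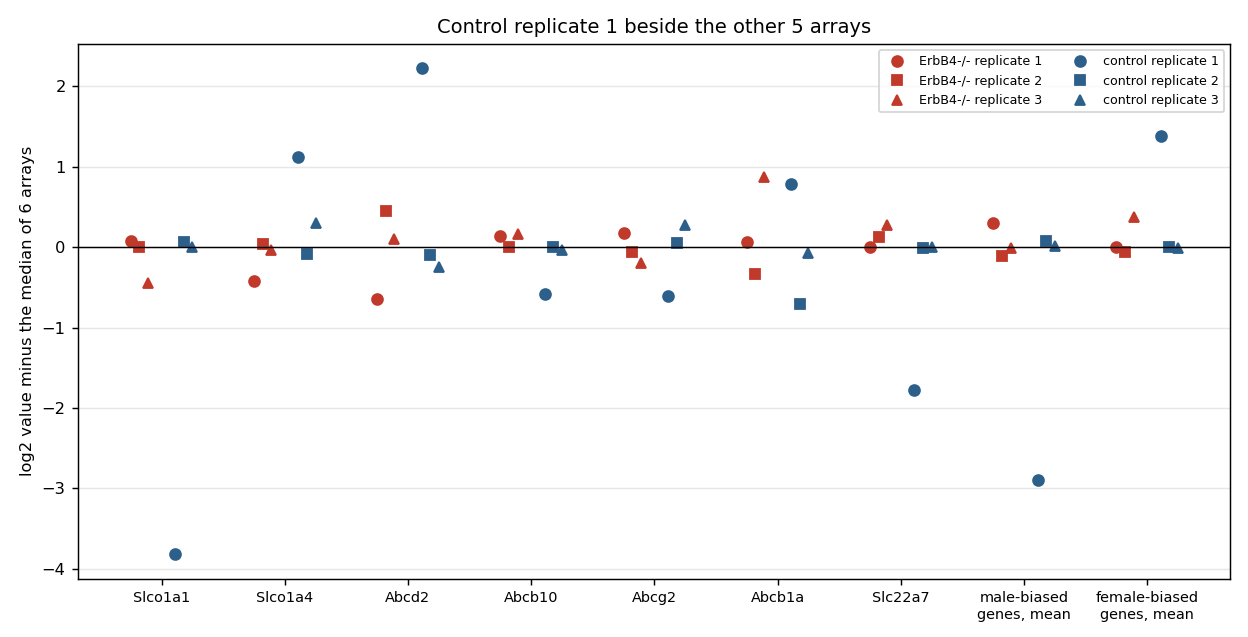
Log2 value of each array minus the median of the 6 arrays (y axis) for 6 transporter genes, the partner gene Slc22a7 and the means of the male-biased and female-biased gene lists, ErbB4-/- in red and control in blue. Control replicate 1 (blue circle) is lowest for Slco1a1, Abcb10, Abcg2, Slc22a7 and the male-biased mean, and highest for Slco1a4, Abcd2 and the female-biased mean.

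The bases upstream of these 2 genes are shown because the genes lie in 1 cluster and departed in opposite directions on the same array. Both are on the minus strand of chromosome 6, with 250 bases before the start taken from RefSeq (GRCm38.p6), 5′ to 3′, at chr6:141946963-141947212 for Slco1a1 and chr6:141856221-141856470 for Slco1a4. Capitals mark the nuclear receptor core AGGTCA on either strand.
Slco1a1: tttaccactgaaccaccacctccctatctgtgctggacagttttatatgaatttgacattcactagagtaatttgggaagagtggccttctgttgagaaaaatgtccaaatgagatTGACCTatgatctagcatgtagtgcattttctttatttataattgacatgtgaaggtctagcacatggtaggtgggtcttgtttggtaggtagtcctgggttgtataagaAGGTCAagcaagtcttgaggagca
Slco1a4: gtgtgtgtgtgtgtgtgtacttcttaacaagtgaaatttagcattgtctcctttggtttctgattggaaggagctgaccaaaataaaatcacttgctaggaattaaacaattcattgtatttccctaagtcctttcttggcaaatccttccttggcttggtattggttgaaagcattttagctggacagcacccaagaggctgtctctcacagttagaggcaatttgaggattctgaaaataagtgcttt
The Slco1a1 window held AGGTCA at 2 places and the Slco1a4 window at 0, and 14.0% of all 32851 upstream windows of this length held it. TTCNNNGAA, the core of STAT5 sites, was in neither window and in 7.02% of all windows. ATTGAT, the core of ONECUT and CUX sites, was in neither and in 6.72% of all windows. Both strands were searched, and the motifs did not overlap in the printed bases. Of the 63 members, 51 had a sequence in the table, with 62 windows, of which 10 held AGGTCA, 4 held TTCNNNGAA and 1 held ATTGAT.

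The basolateral exporters, which differ in the substrates they move to blood, showed no common direction. Of 5 genes 2 were higher and 3 lower, with a median difference of -0.11, and in none did the groups separate. Abcc3, an exporter of glucuronides, measured 10.60, 10.63 and 10.58 in ErbB4-/- livers and 10.58, 10.02 and 10.58 in control livers. Only control replicate 2 differed, and the difference of 0.21 (adjusted p = 0.766) was 0.02 without it. Abcc4, an exporter of bile acids with glutathione and of cyclic nucleotides, measured 5.80, 5.22 and 5.80 in ErbB4-/- livers and 5.80, 5.75 and 5.88 in control livers. The low value of ErbB4-/- replicate 2 carried the difference of -0.20 (adjusted p = 0.772), which was -0.011 without that array.

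Abcc6, through which liver releases ATP into blood and whose loss causes ectopic mineralisation, measured 9.07, 8.85 and 9.01 in ErbB4-/- livers and 8.72, 8.87 and 8.74 in control livers. ErbB4-/- replicate 2 lay just below the highest control. The difference of 0.20 had a standard error of 0.08 and an unadjusted p of 0.0475, with an adjusted p of 0.760. Abcc1, a glutathione conjugate exporter that is scarce in resting hepatocytes, measured 5.83, 5.91 and 5.67 in ErbB4-/- livers and 6.12, 5.90 and 5.94 in control livers. Its difference of -0.18 was -0.12 without control replicate 1 and -0.11 without ErbB4-/- replicate 3. Abcc5, an exporter of cyclic nucleotides, measured 5.52, 5.52 and 5.43 in ErbB4-/- livers and 5.77, 5.52 and 5.52 in control livers. Control replicate 1 was 0.25 above the next array, and the difference of -0.11 was -0.031 without it. Equal values such as these recur in the table, and 38 of the 63 members had the same deposited value on at least 2 arrays, as did 57.6% of all genes. How such ties arose is not given in the labels, so equal values need not mean equal amounts of RNA.

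Of the sterol exporters, 4 of 5 had differences above 0, with a median of 0.05 that was -0.0077 without ErbB4-/- replicate 3 and 0.10 without ErbB4-/- replicate 2. Abca1 loads cholesterol onto apolipoprotein A-I, and as a target of liver X receptors it follows the sterol content of cells. It measured 9.79, 9.69 and 9.91 in ErbB4-/- livers and 9.76, 9.80 and 9.68 in control livers. ErbB4-/- replicate 3 was 0.11 above the next array and the rest overlapped. The difference of 0.05 had an interval of -0.14 to 0.24 (limma, adjusted p = 0.847), and was -0.0077 without that array. Abcg1, which passes cholesterol to mature HDL and is known for its role in macrophages, measured 6.36, 6.41 and 5.90 in ErbB4-/- livers and 6.41, 6.42 and 6.41 in control livers. ErbB4-/- replicate 3 alone was low, and the difference of -0.19 was -0.027 without it. Abcg4, a relative best known from brain, measured 4.95 to 5.05 in ErbB4-/- livers and 4.75 to 4.95 in control livers, a low signal with a difference of 0.10.

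Abcg5 and Abcg8 encode the 2 subunits of the transporter that secretes cholesterol and plant sterols into bile. Abcg5 measured 9.30, 9.42 and 9.85 in ErbB4-/- livers and 9.53, 9.57 and 9.42 in control livers, with ErbB4-/- replicates at both ends of the range and a difference of 0.016. Abcg8 measured 9.59, 9.61 and 9.83 in ErbB4-/- livers and 9.24, 9.59 and 9.41 in control livers. ErbB4-/- replicate 1 equalled the highest control, and the difference was 0.26 with an interval of -0.03 to 0.55 (adjusted p = 0.760). The highest array of both genes was ErbB4-/- replicate 3. Without it the difference was -0.15 for Abcg5 and 0.19 for Abcg8.

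The genes are transcribed away from each other, and the bases between their starts are shown because both subunits share them. RefSeq places the 109 bases at chr17:84683012-84683120 (GRCm38.p6), printed 5′ to 3′ on the plus strand, the strand of Abcg8. Capitals mark the GATA factor motif AGATAA or its complement TTATCT.
Abcg5 and Abcg8: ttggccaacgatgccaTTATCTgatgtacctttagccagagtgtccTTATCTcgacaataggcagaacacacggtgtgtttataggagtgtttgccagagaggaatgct
The stretch held the motif at 2 places, with both strands searched and it held none of the other motifs. It was looked for after the sequence had been seen. Of 32851 windows of the same length directly upstream of a start, 3.98% held it.

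Peroxisomal ABC proteins bring fatty acids into the organelle for oxidation. Abcd2, a carrier of very long-chain and polyunsaturated acyl groups, measured 7.53, 8.63 and 8.28 in ErbB4-/- livers and 10.40, 8.08 and 7.93 in control livers. Control replicate 1 was the highest array, 1.77 above the next, and the other controls lay within the range of the mutants. The difference of -0.66 (standard error 0.73, adjusted p = 0.805) was 0.14 without that array. Control replicate 1 lay more than 1 log2 unit outside the range of the other 5 arrays in 2 of 63 members, Slco1a1 and Abcd2. It did so in 0.293% of all genes. ErbB4-/- replicate 3 lay as far outside in 0 members and in 0.334% of all genes. Abcd3, the abundant peroxisomal protein PMP70 that also carries bile acid precursors, measured 11.55, 11.53 and 11.86 in ErbB4-/- livers and 11.15, 11.55 and 11.49 in control livers. Its difference was 0.25 (adjusted p = 0.760), and 0.13 without control replicate 1, its lowest array, or 0.14 without ErbB4-/- replicate 3, its highest.

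Mitochondrial members serve haem and iron handling, and all 3 had differences above 0. Abcb10, an inner-membrane protein needed for haem synthesis in red cell precursors, measured 7.67, 7.53 and 7.70 in ErbB4-/- livers and 6.95, 7.53 and 7.50 in control livers. Control replicate 1 was again the lowest, 0.55 below the next, and the difference of 0.31 became 0.12 without it. Abcb6, a porphyrin transporter, measured 8.96, 8.78 and 8.98 in ErbB4-/- livers and 8.57, 8.67 and 8.84 in control livers, with 1 mutant array inside the control range and a difference of 0.21 (standard error 0.10, adjusted p = 0.760). Abcb8, an inner-membrane protein, differed by 0.10. Without control replicate 1 the median of the 3 was 0.14.

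Abce1, Abcf1, Abcf2 and Abcf3 carry ABC domains but act in translation and ribosome recycling and transport nothing. Abcf1 measured 8.31, 8.34 and 8.74 in ErbB4-/- livers and 8.34, 8.34 and 8.32 in control livers. Abcf2 measured 7.91, 7.85 and 8.31 in ErbB4-/- livers and 7.92, 7.92 and 7.86 in control livers. Abcf3 measured 7.46, 7.46 and 7.84 in ErbB4-/- livers and 7.46, 7.21 and 7.46 in control livers. In all 3, ErbB4-/- replicate 3 lay 0.38 to 0.40 above the nearest array. Their differences of 0.13, 0.12 and 0.21 became -0.0092, -0.018 and 0.081 without it. Abce1 differed by -0.09 (adjusted p = 0.858), and by 0.028 without ErbB4-/- replicate 3 or -0.17 without control replicate 1.

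Of the other 23 ABC genes 11 were higher and 12 lower, with a median difference of -0.045. The smallest unadjusted p of all members, 0.0172, belonged to Abcc9, the SUR2 subunit of ATP-sensitive potassium channels, known from muscle and the mural cells of vessels. It measured 8.67, 8.24 and 8.16 in ErbB4-/- livers and 8.83, 8.78 and 8.91 in control livers. Every mutant lay below every control, and the difference was -0.49 with an interval of -0.85 to -0.12, a ratio of 0.714 (limma, adjusted p = 0.760). It ranged from -0.64 to -0.39 when single arrays were left out, and was -0.15 once the labelled week entered the fit. Abcg3, a rodent relative of Abcg2, measured 5.47, 5.73 and 5.34 in ErbB4-/- livers and 5.73, 5.91 and 6.13 in control livers. The highest mutant equalled the lowest control, and the difference was -0.41 with an interval of -0.77 to -0.05.

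Abca5, a protein of lysosomes and late endosomes, measured 6.51, 6.26 and 6.26 in ErbB4-/- livers and 6.26, 5.99 and 6.20 in control livers, a difference of 0.19. Abca8b, a liver exporter of lipids and organic anions, measured 9.04, 8.85 and 8.35 in ErbB4-/- livers and 8.79, 8.81 and 8.81 in control livers. The mutants spanned both sides of the controls, with a difference of -0.06 that was 0.14 without ErbB4-/- replicate 3. The 11 other OATP genes had a median difference of 0.00088, with 6 higher and 5 lower. Slco4c1, an OATP of kidney, measured 3.07, 3.13 and 3.04 in ErbB4-/- livers and 3.60, 3.40 and 3.17 in control livers, without overlap. Its difference of -0.31 was -0.21 without control replicate 1. Its level lay below the median of all genes on every array, as for 22 of the 63 members, so background may make up much of it. Slco2a1, the prostaglandin transporter of endothelium, measured 9.62, 9.51 and 9.21 in ErbB4-/- livers and 9.49, 9.52 and 9.68 in control livers. Its difference of -0.12 rested on ErbB4-/- replicate 3 and was -0.00028 without it.

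Marker lists of other liver cells are given beside these genes. The mean of 11 stellate cell and fibroblast markers was 7.52, 7.29 and 6.98 in ErbB4-/- livers and 7.52, 7.50 and 7.54 in control livers, with 9 of 11 lower. The mean of 12 endothelial markers was 8.04, 7.44 and 6.78 in ErbB4-/- livers and 7.99, 8.31 and 8.48 in control livers, with 12 of 12 lower. The mean of 15 Kupffer cell and macrophage markers was 8.13, 7.83 and 7.33 in ErbB4-/- livers and 8.48, 8.52 and 8.77 in control livers, with 15 of 15 lower. The mean of 13 neutrophil markers was 4.71, 4.78 and 5.03 in ErbB4-/- livers and 7.16, 5.32 and 6.81 in control livers, with 13 of 13 lower. No marker of these lists passed over all genes, where 1 gene did. In the order given, 2, 6, 13 and 11 markers had an unadjusted p under 0.05 (limma), against 5.72% of all genes. In the same order 3, 3, 12 and 9 markers lay lower without overlap, against 3.81% of all genes. In each of the first 3 lists, as in Abcc9, ErbB4-/- replicate 1 was the highest mutant array and replicate 3 the lowest. This order is not particular to Abcc9. It also held in Abcb11, Slco1a1, Abcg2 and Abca8b, among others, and did not hold in Abcg3. The part of these cells in the transporter values was not tested. Fewer cells of a type and less RNA per cell cannot be told apart in whole liver. Hepatocyte markers, a list that includes Hnf4a, had a median difference of -0.025 with 1 of 10 higher. The median was -0.050 for T and NK cell markers, with 8 of 10 lower. It was -0.10 for B and plasma cell markers and -0.020 for cholangiocyte markers, each with 4 of 6 lower. In these last lists 3, 0 and 0 markers had an unadjusted p under 0.05 (limma), against 5.72% of all genes. Ncr1 among them was higher in ErbB4-/- liver.

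**Figure D4:**
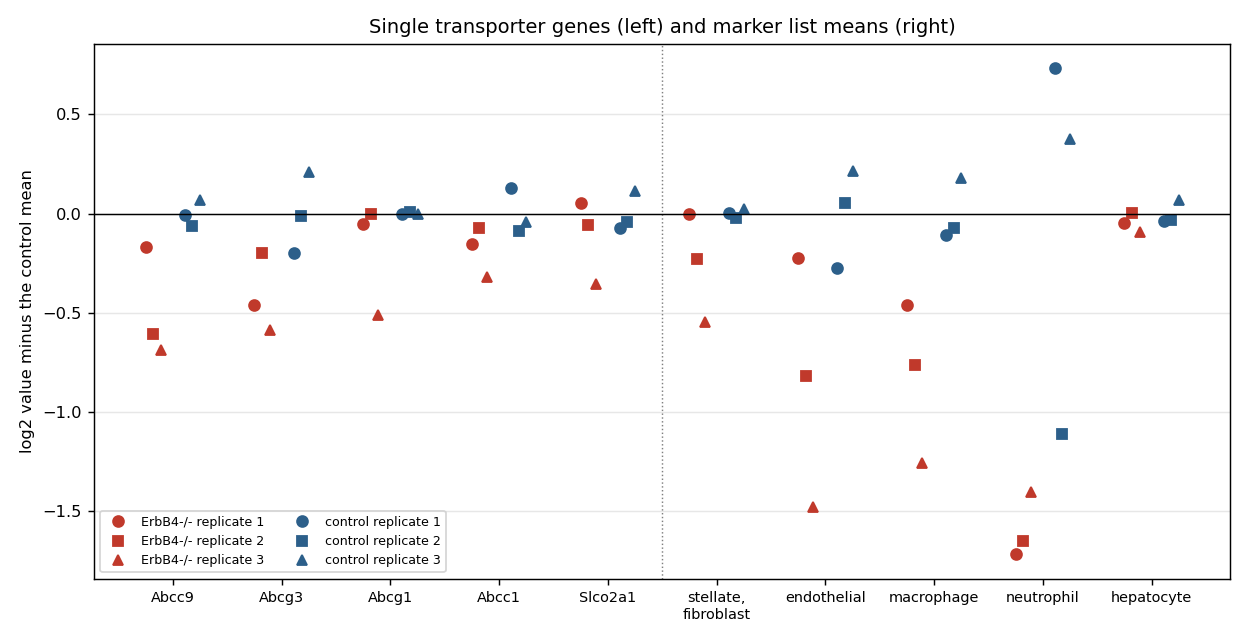
Log2 value of each array minus the control mean (y axis) for 5 transporter genes on the left and the means of 5 marker lists on the right, ErbB4-/- in red and control in blue. The red points of Abcc9 all lie below the blue ones, as do those of the macrophage and neutrophil lists, while the points of the hepatocyte list lie close together.

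Partner transporters and regulators of bile formation that carry other names were counted the same way. Of 8 partner genes measured, 4 were higher and 4 lower, 0 passed, and the median difference was 0.028. Atp8b1, the flippase that protects the canalicular membrane, measured 9.23, 9.14 and 8.91 in ErbB4-/- livers and 9.42, 9.37 and 9.24 in control livers. The groups did not overlap, and the difference was -0.25 (limma, adjusted p = 0.760). It was the 1 partner with an unadjusted p under 0.05, against 5.72% of all genes, and 3.81% of all genes lay lower without overlap. Slc47a1, an exporter of organic cations, measured 8.71, 8.84 and 9.28 in ErbB4-/- livers and 8.71, 8.69 and 8.54 in control livers. Slc22a7, a basolateral organic anion carrier, measured 8.52, 8.65 and 8.80 in ErbB4-/- livers and 6.75, 8.51 and 8.52 in control livers. Its low value on control replicate 1 repeats the picture of Slco1a1, and the difference of 0.73 was 0.14 without that array.

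Of 12 regulator genes, 2 were higher and 10 lower, 0 passed, and 3 had an unadjusted p under 0.05, against 5.72% of all genes. These 3 lay lower without overlap, as did 3.81% of all genes. Ahr, the receptor for aryl hydrocarbons, measured 8.50, 8.75 and 8.09 in ErbB4-/- livers and 9.35, 9.09 and 9.07 in control livers, a difference of -0.72 (standard error 0.18, adjusted p = 0.760). Mylip, a sterol-induced ubiquitin ligase that degrades the LDL receptor, measured 7.43, 7.28 and 7.32 in ErbB4-/- livers and 7.65, 7.70 and 8.07 in control livers. Hnf4a, a master factor of hepatocyte identity, measured 10.68, 10.74 and 10.67 in ErbB4-/- livers and 11.02, 10.79 and 11.17 in control livers, a difference of -0.30. All 3 kept this sign without control replicate 1, at -0.63, -0.54 and -0.28.

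Without control replicate 1, the differences of 4 members moved by more than 0.3, those of Slco1a1, Abcd2, Abcb1a and Slco1a4, and those of 7 members changed sign. The median change of a member was 0.033. The count of members called stayed at 0 of 63, and 3 members had an unadjusted p under 0.05, Abca14, Abcg3 and Slco1a6, against a background of 4.77%. Abcc9 then had a difference of -0.49, as with all arrays, with a wider standard error of 0.18 and an adjusted p of 0.813. With both control replicate 1 and ErbB4-/- replicate 3 left out, 0 members were called by limma and 0 had an unadjusted p under 0.05.

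**Figure D5:**
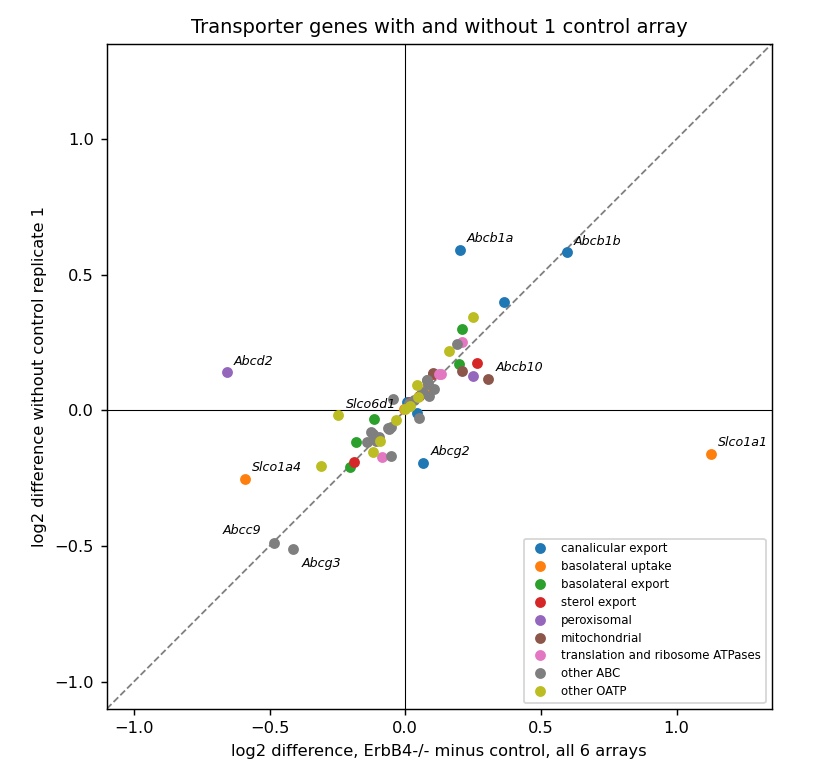
Log2 difference between ErbB4-/- and control liver with all 6 arrays (x axis) against the same without control replicate 1 (y axis), 1 point per transporter gene, coloured by role, with the dashed line marking equal values. Most genes lie near the line, while Slco1a1, which shifts to -0.16, Abcd2, which shifts to 0.14, Abcb1a and Slco1a4 lie off it.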

How the data were processed

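Liver RNA was extracted with Trizol and labelled with biotin after amplification with whole-transcript reagents, per the labels. The authors deposited 1 normalized log2 value for each probe set and array. How they normalized is not stated in the labels, and the base of the logarithm was inferred from the range, which ends at 14.4. Of 41345 probe sets, 23521 had 1 gene symbol in the platform annotation, 1814 had several and 16010 were unnamed. No member symbol occurred in a probe set with several symbols. Symbols were checked against RefSeq (GRCm38.p6), which changed 0.

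Groups were taken from sample titles. ErbB4-/- minus control was fitted in R 4.3.3 with limma 3.58.1 (lmFit, eBayes), genotype being the only term, on all 22180 genes, two-sided, with Benjamini-Hochberg adjustment at 0.05. Intervals of 95% use the 5.62 degrees of freedom of the fit. Dim genes were kept. The series is described as a comparison with 3 biological replicates per group, read here as 3 mice. The labels do not describe how samples within a group were kept separate, so p-values measure the spread between these samples. The fit was also run on simulated data with independent genes and no outlying array. These data differ in both, so that run does not gauge the power of the fit here. Members, role groups, marker lists and alternatives were chosen with earlier results of these data known. Named genes are all members of the canalicular, basolateral and sterol groups, and among other members reaching the median level of all genes on an array, the 6 with the smallest p and the 6 with the largest gap of 1 array to the nearest, with the 3 smallest p among partners and among regulators. Slco4c1, Slco2a1, Abcb8, Abce1, Abca14 and Slco1a6 were named after their values were seen. The alternatives were quantile normalization, centring on array medians, dropping genes under the median level, averaging a gene's probe sets, testing every row, a trend and robust prior, array weights, a replicate block, the labelled week in the fit, a threshold of 0.1 and leaving out arrays. Figures were drawn with matplotlib 3.10.9.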

Additional observations from a re-analysis of the deposited data

How the results depend on the processing

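No member was called by limma under any alternative, including the threshold of 0.1, with a lowest adjusted p between 0.524 and 0.994. The count of members at an unadjusted p under 0.05, 5 with all arrays, was 7 after quantile normalization (11.1%, against 6.16% of all genes), 2 among genes reaching the median level (4.88% against 7.51%), 3 with every row tested (4.76% against 2.53%), 3 with array weights (4.76% against 6.33%) and 2 with the week in the fit (3.17% against 4.24%). It was 0 with both control replicate 1 and ErbB4-/- replicate 3 left out, where 5.98% of all genes had such a p, and 1 to 6 when single arrays were left out. The lowest counts, of 1, came without ErbB4-/- replicate 1 (Abcc9) and without ErbB4-/- replicate 3 (Abcc2).

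The replicate numbers were not treated as pairs in the main fit. Deviations of same-numbered mice correlated at -0.022, 0.037 and 0.0026, and all correlations between the groups lay from -0.040 to 0.037. Only 1 of 3 ErbB4-/- arrays correlated best with its own number. Correlations this small cannot show whether the numbers pair the samples. With the replicate number as a block, 0 members were called, 4 had an unadjusted p under 0.05 and the lowest adjusted p was 0.780.

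The median difference over all members was 0.024 after quantile normalization, 0.031 with averaged probe sets, 0.029 with array weights, 0.023 with the week and 0.014 without both arrays, and 0.014 to 0.039 when single arrays were left out. For basolateral uptake it was -0.12 with averaged probe sets, -0.12 with the week and 0.0065 without both arrays, and -0.077 to 0.049 with single arrays left out. For basolateral export it was 0.14 with the week and 0 without both arrays, and -0.16 to -0.011 with single arrays left out. For canalicular export, 0.13 with all arrays, it was 0.029 with the week and 0.067 among brighter genes, and 0.11 to 0.25 with single arrays left out. For sterol export it was 0.012 with the week, 0.025 with array weights and -0.0034 without both arrays, and -0.0077 to 0.10 with single arrays left out. For the 2 peroxisomal genes it was 0.20 with the week and 0.049 without both arrays, and -0.40 to 0.13 with single arrays left out. It was -0.0060 for the mitochondrial group and -0.10 for the ATPases of translation with the week, and -0.0070 for those ATPases without both arrays. For other ABC genes it was -0.016 among brighter genes, 0.016 with array weights and 0.014 without both arrays, and -0.030 to 0.0078 with single arrays left out. For other OATP genes it was -0.018 after quantile normalization, -0.076 among brighter genes, -0.011 with array weights and 0.048 with the week, and -0.030 to 0.015 with single arrays left out.

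By the characteristic each mutant was older than each control, so week and genotype are nearly confounded. Within a group the labelled week follows only the replicate number, and the protocol text gives the same week for every mouse. Values with the week are therefore no adjustment for a known age. The week in the fit turned the sign of 18 named genes. It gave -0.18 for Abcb4, -0.27 for Abcc2, -0.33 for Abcg2, -1.35 for Slco1a1, 0.020 for Slco1b2, 0.076 for Abcc1, 0.14 for Abcc5, 0.16 for Abcg1 and -0.31 for Abcg5. It gave -0.042 for Abcg8, -0.0060 for Abcb6, -0.13 for Abcb10, -0.23 for Abcd3, 0.64 for Abcd2, 0.44 for Abca8b, -0.18 for Abcf1, -0.13 for Abcf2 and -0.078 for Abcf3. Array weights gave -0.060 for Abcc2, 0.0031 for Slco1b2, -0.055 for Abcg5 and 0.029 for Abca8b. Leaving out both arrays gave -0.11 for Abcc2, -0.11 for Abcg2, 0.010 for Slco1b2, -0.0034 for Abca1, -0.14 for Abcg5, 0.077 for Abcd2, 0.13 for Abca8b, -0.0064 for Abcf1 and -0.0075 for Abcf2. Quantile normalization gave 0.024 for Slco1b2, and averaged probe sets gave -0.23 for Slco2b1.

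With single arrays left out, the difference ranged over -0.066 to 0.17 for Abcb11, -0.14 to 0.086 for Abcc2, -0.16 to 0.59 for Abcb1a, -0.19 to 0.25 for Abcg2, -0.16 to 1.78 for Slco1a1 and -0.023 to 0.011 for Slco1b2. It ranged over -0.0077 to 0.10 for Abca1, -0.15 to 0.13 for Abcg5, -1.09 to 0.14 for Abcd2, -0.21 to 0.14 for Abca8b, -0.0092 to 0.21 for Abcf1 and -0.018 to 0.21 for Abcf2. The cause was not tested. Of the 31 named genes, none passed the test, so a sign here describes values and not calls. The number of mice limits the precision, with a median standard error of 0.10 among members.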
